A study of Rattus norvegicus with 4 samples.

Results

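The genes that carry a cell through mitosis were followed in rat INS-1 832/13 β-cells after silencing of Tbk1. The list was given by gene name and gathered by function, with earlier results of these data known. It holds 54 genes: mitotic kinases and cyclins, the kinetochore, the spindle checkpoint, condensin, mitotic kinesins and cytokinesis genes, together with the checkpoint ligase gene Chfr and the proliferation marker gene Mki67. A row was found by gene name for 53 of them, out of 15172 genes in the table, and Ccnb2 was not analysed here. INS-1 832/13 is an insulin-secreting subclone of a rat insulinoma line. Its cells were transfected for 36 h with a pool of siRNAs against Tbk1 (siTbk1, 2 samples) or with a non-targeting siRNA (siScramble, 2 samples), the first of which the labels call TBK1-transfected, and all 4 samples otherwise share the same line, culture medium and transfection reagent. Replicates are numbered 2 and 3 in either group. Nothing in the labels says whether they came from separate cultures, so the p-values below measure the spread between these samples, which may be technical.

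A cell enters mitosis when cyclin-dependent kinase 1 (Cdk1), bound to cyclin A or cyclin B, is freed from inhibitory phosphorylation by the Cdc25 phosphatases. Condensin then compacts the chromosomes, kinetochores assembled on the centromeres bind spindle microtubules, and the spindle checkpoint holds back the anaphase-promoting complex until every chromosome is attached. Once the checkpoint is satisfied, the complex marks securin and the cyclins for destruction, separase opens cohesin, and a central spindle guides the cleavage of the cell. Most of these genes are transcribed in G2 and mitosis and repressed in resting cells, and in the adult pancreas few β-cells express them. An insulinoma line divides continuously. In RNA from a whole culture, a larger share of cells in mitosis and more mRNA per mitotic cell cannot be told apart.

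Transcription in G2 and mitosis is known to act through the cell cycle genes homology region (CHR, TTTGAA) and through CCAAT boxes, which the choice of genes did not use. Promoters from RefSeq (assembly GRCr8, 250 bases before to 50 bases after a start site, not the rn6 build named for the read data) were matched by symbol for 46 of the 53 genes. There was no entry for Ccna2, Aurkb, Incenp, Tpx2, Racgap1, Ube2c and Foxm1. The letters TTTGAA were present on either strand in 33 of the 46 promoters (71.7%), against 11.8% of 9690 tested genes with a promoter entry and 19.4% of all 27457 genes in the promoter table. CCAAT was present in 33 of 46 (71.7%), against 38.9% of the tested genes and 39.6% of the table. Both were present in 26 of 46 (56.5%), against 4.84% of the tested genes. The related letters TTCGAA were in 4 promoters (8.7%, against 2.22%). E2F-type letters were rarer. TTTGGCGC was in 0 promoters (against 0.939%), and TTTCGCGC was in 1 (2.17%, against 0.671%), the same promoter as the shorter TTCGCGC that it contains (2.17%, against 3.2%). A match is a description of the letters and not a binding site.

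The 150 bases before the start site are given below, 5′ to 3′ on the strand of the gene, for 8 genes that the results turn on. The set holds Mki67 and Cdk1, 3 of the genes with the largest increases (Hmgb2, G2e3 and Chfr), Cdc20, which did not pass the test, and Birc5 and Espl1, which fell. Capitals mark TTTGAA and CCAAT or their reverse complements, which overlap in the second capital run of TTTGAA in Mki67.
Mki67, chr1:199952594-199952743, minus strand: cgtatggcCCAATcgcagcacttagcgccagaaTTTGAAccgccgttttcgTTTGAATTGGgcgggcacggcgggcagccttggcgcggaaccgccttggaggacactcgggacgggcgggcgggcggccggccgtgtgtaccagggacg
Cdk1, chr20:19265143-19265292, plus strand: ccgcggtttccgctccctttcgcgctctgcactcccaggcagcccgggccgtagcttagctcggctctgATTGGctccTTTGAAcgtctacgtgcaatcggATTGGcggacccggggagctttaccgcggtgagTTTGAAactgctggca
Hmgb2, chr16:37723951-37724100, minus strand: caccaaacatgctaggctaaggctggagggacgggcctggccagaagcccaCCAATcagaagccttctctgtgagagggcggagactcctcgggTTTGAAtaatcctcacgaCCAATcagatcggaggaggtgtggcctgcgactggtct
G2e3, chr6:74499436-74499585, plus strand: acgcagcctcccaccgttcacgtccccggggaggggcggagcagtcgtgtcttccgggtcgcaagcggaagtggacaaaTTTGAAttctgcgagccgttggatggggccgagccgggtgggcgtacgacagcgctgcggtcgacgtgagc
Chfr, chr12:52197704-52197853, minus strand: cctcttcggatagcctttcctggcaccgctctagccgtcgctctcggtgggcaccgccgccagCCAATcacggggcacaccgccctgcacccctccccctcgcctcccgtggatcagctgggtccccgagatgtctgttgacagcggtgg
Cdc20, chr5:137255800-137255949, minus strand: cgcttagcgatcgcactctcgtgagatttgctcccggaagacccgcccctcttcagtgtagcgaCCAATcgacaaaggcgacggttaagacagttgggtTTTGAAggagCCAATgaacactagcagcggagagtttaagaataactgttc
Birc5, chr10:103571996-103572145, plus strand: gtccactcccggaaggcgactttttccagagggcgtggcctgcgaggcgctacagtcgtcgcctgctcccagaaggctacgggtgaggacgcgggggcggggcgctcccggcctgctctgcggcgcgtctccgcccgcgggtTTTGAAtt
Espl1, chr7:135302566-135302715, plus strand: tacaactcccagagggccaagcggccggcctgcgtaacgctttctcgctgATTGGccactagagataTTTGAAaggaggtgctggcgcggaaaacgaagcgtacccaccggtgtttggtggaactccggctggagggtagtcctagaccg
These letters occurred in rising and falling genes alike. TTTGAA was in the promoters of 22 of 28 genes that rose, 3 of 4 that fell and 8 of 14 that did not pass the test. In Chfr, which rose most, the stretch above holds CCAAT and no TTTGAA.

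The 4 libraries held between 38428926 and 47759013 estimated counts. Counts were rounded, scaled with TMM factors and tested with the quasi-likelihood test of edgeR over 13953 genes, with Benjamini-Hochberg adjustment. Levels are CPM, that is, counts per 1000000 of the TMM-scaled library total. A count of 3, taken as the floor of detection for counting error only, was worth 0.0628 to 0.0781 CPM depending on the library. Every one of the 53 genes passed the filter on low counts, with mean levels between 27.4 and 619 CPM, well above that floor. Tbk1, the target, stood at 53.7 and 52.5 CPM in siScramble replicates 2 and 3 and at 11.8 and 13.3 CPM in siTbk1 replicates 2 and 3 (log2 fold change −2.08, standard error 0.0757). The β-cell label was checked with 14 marker genes, all of which were detected, with Ins1 between 6132 and 11320 CPM of the unscaled library totals. Of 13 markers of other cell types, 2 had a row: the macrophage gene Cd68, between 0.182 and 0.335 CPM, and the glucagon gene Gcg, between 803 and 1406 CPM on the same scale. Gcg fell with siTbk1 (log2 fold change −0.68, standard error 0.057, adjusted p = 4.74e-06, edgeR). Its part in the results below was not tested.

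Silencing of Tbk1 was accompanied by small increases in most mitotic genes and by decreases in a few. At an adjusted p-value under 0.05 at any fold, which is what "rose" and "fell" mean here, 32 of the 53 genes rose and 4 fell, while 17 did not pass the test. Without siTbk1 replicate 3, 29 rose and 2 fell. Over all genes tested, 24.4% rose and 24.8% fell. Because the precision of a change depends on the level, the same shares were taken over the 6360 genes with a mean level at least that of the lowest of the 53, a threshold chosen after the data were seen. There 33.1% rose and 29.2% fell. Few of the changes were large. Only Chfr, G2e3, Cenpf and Hmgb2 also reached the fold change of 1.5 that the study used as its limit (log2 fold change 0.585), which is 4 of 53 beside 4.81% of all genes tested. At that limit 0 genes of the list were called lower by edgeR, beside 6.18% of all genes tested. DESeq2 also called 0 of them lower, beside 738 of the 13953 genes tested. These shares at the fold limit were not matched on level. By edgeR, 5 of the 53 were below 0 at an unadjusted p under 0.05.

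The median log2 fold change of the 53 genes was 0.24 (a fold of 1.18), with a range from −0.38 to 1.06, and that of all genes tested was 0.0071. In 37 genes both siTbk1 samples lay above both siScramble samples, in 11 both lay below, and in 5 the groups overlapped. Over all genes tested, 38.7% were separated upward and 37.9% downward. Summed over the list, the level was 7060 and 6774 CPM in the siScramble samples and 8189 and 8404 CPM in the siTbk1 samples. Both siTbk1 sums were therefore above both control sums, with a fold of 1.2 between the means, and without Mki67, the gene with the highest CPM, the fold was 1.19.

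**Figure D1:**
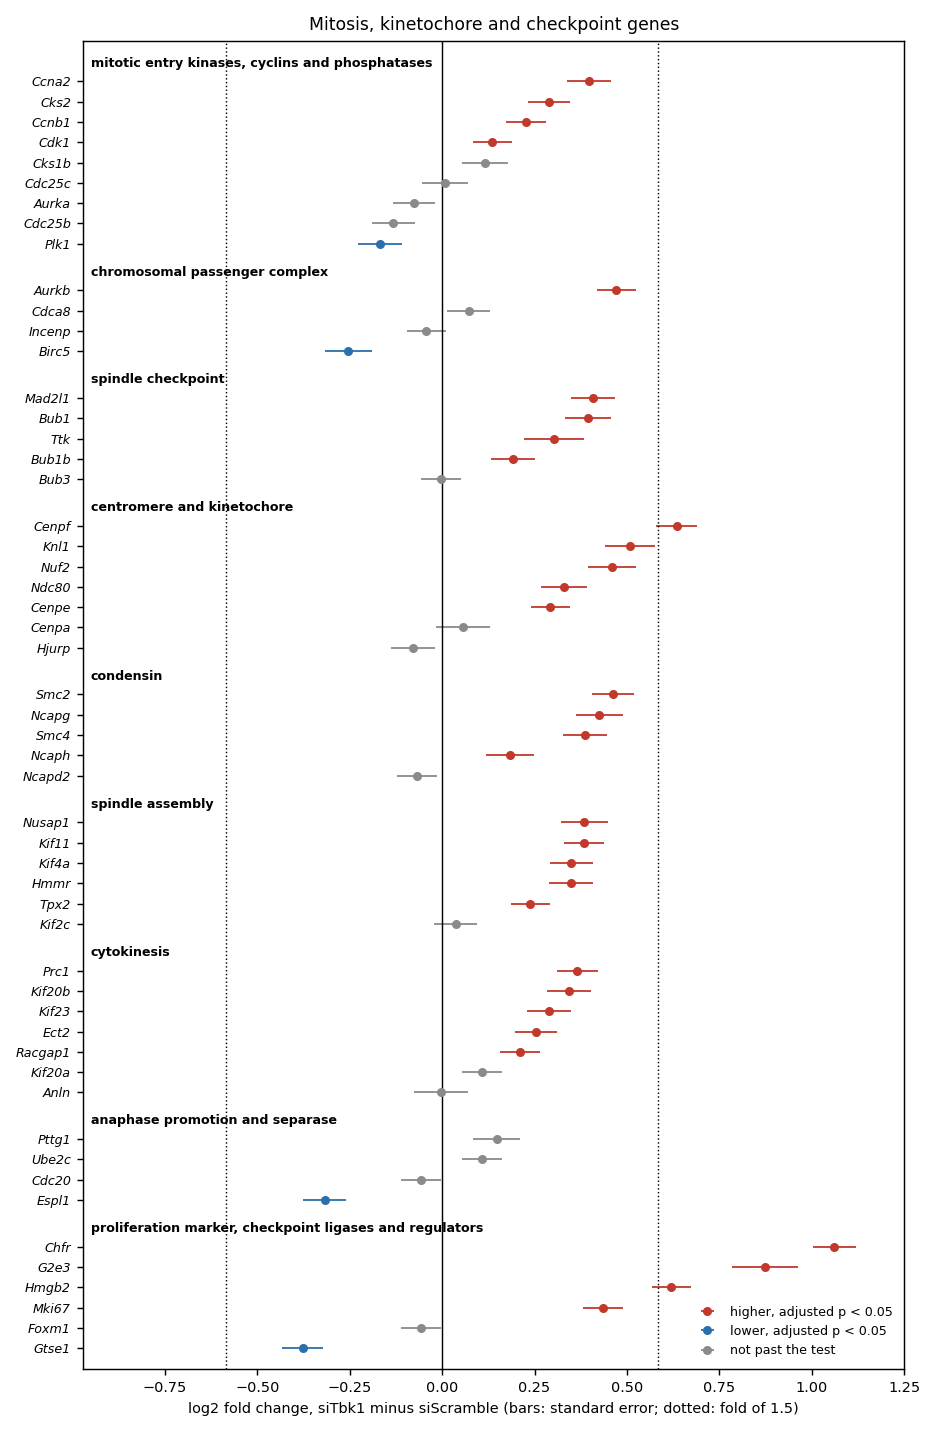
Log2 fold change (x axis, siTbk1 minus siScramble) of each of the 53 genes, in 9 functional subgroups, with bars for the standard error and dotted lines at a fold of 1.5. Most points lie to the right of 0 and to the left of the upper dotted line, with Chfr (1.06), G2e3 (0.87), Cenpf (0.63) and Hmgb2 (0.62) beyond it, and Gtse1 (−0.38) lies farthest to the left.

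Among the regulators of entry into mitosis, the cyclin genes rose and the kinase and phosphatase genes mostly did not. Of the 9 genes measured, 4 rose, 1 fell and 4 did not pass the test, with a median log2 fold change of 0.12. That median was 0.0471 without siScramble replicate 3, 0.178 without siScramble replicate 2 and 0.188 with a correction for genomic span. Ccna2, which encodes cyclin A2, had levels of 163 and 153 CPM in the siScramble samples and 199 and 217 CPM in the siTbk1 samples. The groups did not overlap, and the log2 fold change came to 0.40 (standard error 0.0595, adjusted p = 0.000196, edgeR). Ccnb1, which encodes cyclin B1, stood at 185 and 192 CPM against 214 and 227 CPM, with both siTbk1 samples above both controls (log2 fold change 0.23, standard error 0.0542, adjusted p = 0.00426, edgeR). Cdk1, their kinase partner, stood at 213 and 201 CPM in the siScramble samples and 228 and 226 CPM in the siTbk1 samples. These groups were separate but close, at a log2 fold change of 0.14 (standard error 0.0526, adjusted p = 0.0488, edgeR), and over the 12 other fits the adjusted p-value of Cdk1 was under 0.05 in 5. The call was lost without siScramble replicate 3 (adjusted p = 0.325, edgeR), without siTbk1 replicate 2 (adjusted p = 0.2) and without siTbk1 replicate 3 (adjusted p = 0.131).

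The small Cdk-binding proteins were also unequal, as Cks2 rose (log2 fold change 0.29) and Cks1b was at 0.12 without passing the test. The phosphatase genes Cdc25b (−0.13) and Cdc25c (0.0083) and the centrosomal kinase gene Aurka (−0.076) did not pass the test. Plk1, the polo-like kinase that promotes entry and later steps of mitosis, had 93.7 and 99.1 CPM in the siScramble samples and 88.4 and 83.1 CPM in the siTbk1 samples. It was lower in both siTbk1 samples (log2 fold change −0.17, standard error 0.0592, adjusted p = 0.0332, edgeR), and it was past the threshold in 7 of the 12 other fits. It was not past it without siScramble replicate 3 (adjusted p = 0.195, edgeR) or without siTbk1 replicate 3 (adjusted p = 0.231), nor with the span correction, where its log2 fold change was −0.0885 (adjusted p = 0.221). A ratio of 2 genes within a library does not depend on how libraries are scaled. The ratio of Ccna2 to Cdk1 was 0.766 and 0.759 in the siScramble samples and 0.872 and 0.958 in the siTbk1 samples, while that of Ccnb1 to Cdk1 was 0.868 and 0.954 against 0.936 and 1, so that the groups overlapped. With 2 samples against 2, the smallest two-sided p of an exact permutation test is 0.333. No test is given of these ratios or of those below, all of which were chosen after the values were seen.

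The chromosomal passenger complex corrects faulty attachments and later acts at the central spindle. Of its 4 genes, 1 rose and 1 fell (25% each), shares near the 24.4% and 24.8% of all genes tested. The kinase gene of the complex, Aurkb, stood at 118 and 113 CPM in the siScramble samples and at 161 and 159 CPM in the siTbk1 samples. Both siTbk1 samples were clearly above the controls, at a log2 fold change of 0.47 (standard error 0.0531, adjusted p = 3.29e-05, edgeR). Birc5, which encodes survivin, moved the other way, from 63.3 and 65.4 CPM to 56.1 and 51.7 CPM. Both siTbk1 samples were below both controls (log2 fold change −0.25, standard error 0.0628, adjusted p = 0.00529, edgeR). Without siTbk1 replicate 3 the call of Birc5 was lost (log2 fold change −0.20, adjusted p = 0.0643, edgeR). The scaffold gene Incenp (−0.043) and Cdca8, which encodes borealin (0.072), did not pass the test. The ratio of Aurkb to Birc5 was 1.86 and 1.72 in the siScramble samples and 2.87 and 3.06 in the siTbk1 samples, a mean log2 change of 0.73. That of Aurkb to Incenp went from 0.739 and 0.674 to 1.01 and 1. These ratios and those in the paragraphs below set a gene that rose over one that did not. Their separation follows from that choice and adds no support. Split reads, here meaning a count more than 0.01 from a whole number in any library, marked 21 of the 53 genes. Over all genes tested, 3690 of 13953 were marked. Such counts may be less certain. Aurkb and Incenp are among the 21 genes, as are Ccna2, Cdk1, Knl1, Ndc80 and Foxm1. In Foxm1 the departure was small, with counts of 4793.01 and 3966.99 in the siScramble samples and 4604 and 3555 in the siTbk1 samples.

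Spindle checkpoint genes were mostly higher. Of 5 genes, 4 rose and none fell, with a median log2 fold change of 0.30. Mad2l1, which encodes the checkpoint protein MAD2, had 93.3 and 85.4 CPM in the siScramble samples and 117 and 120 CPM in the siTbk1 samples, a separation of the groups with a log2 fold change of 0.41. The kinase gene Bub1 stood at 139 and 127 CPM against 168 and 182 CPM (log2 fold change 0.39). Smaller increases were seen for the kinase gene Ttk (33.6 and 29.3 CPM against 36.9 and 41 CPM, log2 fold change 0.30) and for Bub1b, which encodes BUBR1 (84.7 and 87.6 CPM against 94.8 and 102 CPM, log2 fold change 0.19). Both were separated by little, and both lost the call without siTbk1 replicate 3 (adjusted p = 0.0609 for Ttk and 0.171 for Bub1b, edgeR), Bub1b also without siScramble replicate 2 (adjusted p = 0.0675), with library size alone (adjusted p = 0.0585) and with the span correction (log2 fold change 0.106, adjusted p = 0.16). Bub3, the WD-repeat partner of both BUB proteins, was at −0.0019, with 144 and 143 CPM in the controls and 139 and 148 CPM after siTbk1, so that its groups overlapped. Of 3 further checkpoint genes on a wider list described below, Trip13, which remodels MAD2, rose (0.24) and 2 fell, Mad2l1bp and Mad1l1. Mad1l1, the partner of MAD2, had 23.6 and 27 CPM in the controls and 20.9 and 20.8 CPM after siTbk1 (log2 fold change −0.28, adjusted p = 0.0133, edgeR).

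At the centromere and kinetochore, the outer genes rose and the genes of centromeric chromatin did not pass the test. Of 7 genes, 5 rose and 0 fell, and the median log2 fold change was 0.33. Cenpf, which encodes a large kinetochore and microtubule-binding protein, had 222 and 210 CPM in the siScramble samples and 326 and 346 CPM in the siTbk1 samples. It is listed on chromosome 13 from 108132499 to 108178610, and its log2 fold change came to 0.63 (standard error 0.0549, adjusted p = 5.59e-06, edgeR). Knl1, a scaffold that recruits the BUB proteins, stood at 118 and 102 CPM against 153 and 161 CPM. The controls of Knl1 lay farther apart than its siTbk1 samples, and the log2 fold change came to 0.51 (standard error 0.0678, adjusted p = 9.34e-05, edgeR).

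Of the microtubule-binding NDC80 complex, Nuf2 stood at 54.8 and 50.5 CPM in the controls and 69.9 and 75.1 CPM after siTbk1 (log2 fold change 0.46, standard error 0.0651, adjusted p = 0.00014, edgeR), and Ndc80 rose by 0.33. The other subunits, named after their values were seen, differed from each other: Spc25 rose, with a log2 fold change of 0.44, and Spc24, near 10.7 CPM in the controls, was at −0.32 (adjusted p = 0.024, edgeR). Cenpe, a kinetochore kinesin, rose by 0.29. Cenpa, the histone variant that marks the centromere, was at 0.057 with 28 and 25.6 CPM against 27.6 and 28.3 CPM, and Hjurp, its chaperone, was at −0.079. Neither passed the test. The ratio of Cenpf to Cenpa was 7.92 and 8.22 in the siScramble samples and 11.8 and 12.2 in the siTbk1 samples, and that of Nuf2 to Hjurp went from 1.09 and 1.01 to 1.45 and 1.61.

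Condensin I genes rose apart from Ncapd2. The ATPase subunit gene Smc2 had 254 and 232 CPM in the siScramble samples and 330 and 340.1 CPM in the siTbk1 samples, which did not overlap (log2 fold change 0.46, standard error 0.0567, adjusted p = 5.58e-05, edgeR). Its partner Smc4 rose by 0.39. Ncapg, a HEAT-repeat subunit, stood at 53.5 and 50.2 CPM against 67.2 and 72.2 CPM (log2 fold change 0.43, standard error 0.0637, adjusted p = 0.000198, edgeR). The kleisin gene Ncaph rose by 0.18 and was past the threshold in 6 of the 12 other fits, but not without siScramble replicate 3 (adjusted p = 0.248, edgeR) or without siTbk1 replicate 2 (adjusted p = 0.237). Ncapd2, the other HEAT-repeat subunit, stood at 173 and 171 CPM in the controls and 170 and 158 CPM after siTbk1 (log2 fold change −0.068, adjusted p = 0.327, edgeR). The ratio of Smc2 to Ncapd2 was 1.47 and 1.36 in the siScramble samples and 1.94 and 2.15 in the siTbk1 samples.

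Of the 6 spindle assembly genes, 5 rose, none was below 0 and the median log2 fold change was 0.35. Kif11, the kinesin that pushes the spindle poles apart, stood at 323 and 299 CPM in the siScramble samples and 400.4 and 411 CPM in the siTbk1 samples. This was a log2 fold change of 0.38, close to the values of Nusap1 (0.39), Kif4a (0.35) and Hmmr (0.35), which encode a microtubule bundling protein, a chromosome-bound kinesin and a spindle-associated protein. Tpx2, which activates Aurora A on the spindle, rose by 0.24. Kif2c, a kinesin that depolymerizes microtubules, did not pass the test (0.036), and its groups overlapped. The ratio of Kif11 to Kif2c was 3.54 and 3.51 in the controls and 4.45 and 4.51 after siTbk1.

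Of the 7 cytokinesis genes 5 rose, with a median log2 fold change of 0.25. Prc1, which bundles the antiparallel microtubules of the central spindle, had 288 and 272 CPM in the siScramble samples and 350.4 and 371 CPM in the siTbk1 samples (log2 fold change 0.37). The genes of the centralspindlin subunits, Kif23 and Racgap1, were both higher. Kif23 stood at 71.5 and 73.8 CPM in the controls and 86.1 and 91.5 CPM after siTbk1 (log2 fold change 0.29), and Racgap1 at 425 and 399 CPM against 483 and 470.1 CPM (0.21). The call of Racgap1 was lost without siScramble replicate 3 (adjusted p = 0.0669, edgeR). Ect2, the exchange factor that they recruit, rose by 0.25, and the kinesin gene Kif20b rose by 0.34, while its relative Kif20a was at 0.11 without passing the test. Anln, which encodes the contractile ring protein anillin, was at −0.0041 with overlapping groups.

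Of the 4 genes of anaphase promotion and separase, 0 rose and 1 fell (25%), beside 24.4% and 24.8% of all genes tested. With so few genes, these counts do not set the subgroup apart from all genes. Cdc20, the activator of the anaphase-promoting complex, stood at 136 and 136 CPM in the siScramble samples and 134 and 127 CPM in the siTbk1 samples (log2 fold change −0.056, adjusted p = 0.416, edgeR). Ube2c, the E2 enzyme of the complex, was at 0.11, and Pttg1, which encodes securin, was at 0.15, both without passing the test. Espl1, which encodes separase, had 141 and 147 CPM in the controls and 121 and 111 CPM after siTbk1. Both siTbk1 samples were below both controls (log2 fold change −0.32, standard error 0.0583, adjusted p = 0.000787, edgeR). Espl1 is listed on chromosome 7 from 143897014 to 143923869, and its count includes split reads.

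The last subgroup, of checkpoint ligases, regulators and the proliferation marker, held the largest increases and the largest decrease. Chfr encodes a ubiquitin ligase that delays entry into mitosis when microtubules are disturbed. It is listed on chromosome 12 from 52562597 to 52596077 and had 60.4 and 58.5 CPM in the siScramble samples and 121 and 128 CPM in the siTbk1 samples. The groups were far apart, at a log2 fold change of 1.06 (standard error 0.0578, adjusted p = 2.63e-07, edgeR). G2e3, a ubiquitin ligase gene with a G2/M pattern of expression, stood at 26.7 and 24.6 CPM against 42.7 and 51.6 CPM. Its siTbk1 samples differed more from each other than its controls did, and the log2 fold change came to 0.87 (standard error 0.0887, adjusted p = 1.66e-05, edgeR). Hmgb2, an abundant chromatin protein of dividing cells, had 101 and 97.2 CPM in the controls and 152 and 152 CPM after siTbk1. Its log2 fold change came to 0.62 (standard error 0.0529, adjusted p = 5.21e-06, edgeR), and its count includes split reads.

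Mki67, which encodes Ki67, a protein that coats mitotic chromosomes and the usual marker of dividing cells, stood at 535 and 518 CPM in the siScramble samples and 688 and 735 CPM in the siTbk1 samples. The groups did not overlap, and the fold was 1.35 (log2 fold change 0.43, standard error 0.0538, adjusted p = 5.89e-05, edgeR), which is under the limit of 1.5. Foxm1, the transcription factor that activates many G2/M genes, had 99.8 and 100.1 CPM in the controls and 97.9 and 94.2 CPM after siTbk1. It did not pass the test (log2 fold change −0.057, standard error 0.0546, adjusted p = 0.409, edgeR). Gtse1, a microtubule-binding protein that restrains Kif2c, had 141 and 147 CPM in the siScramble samples and 114 and 109 CPM in the siTbk1 samples. With both siTbk1 samples below both controls, its log2 fold change came to −0.38 (standard error 0.0545, adjusted p = 0.000156, edgeR). The ratio of Mki67 to Foxm1 was 5.36 and 5.17 in the controls and 7.03 and 7.8 after siTbk1, and that of Mki67 to Plk1 went from 5.71 and 5.22 to 7.79 and 8.84.

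**Figure D2:**
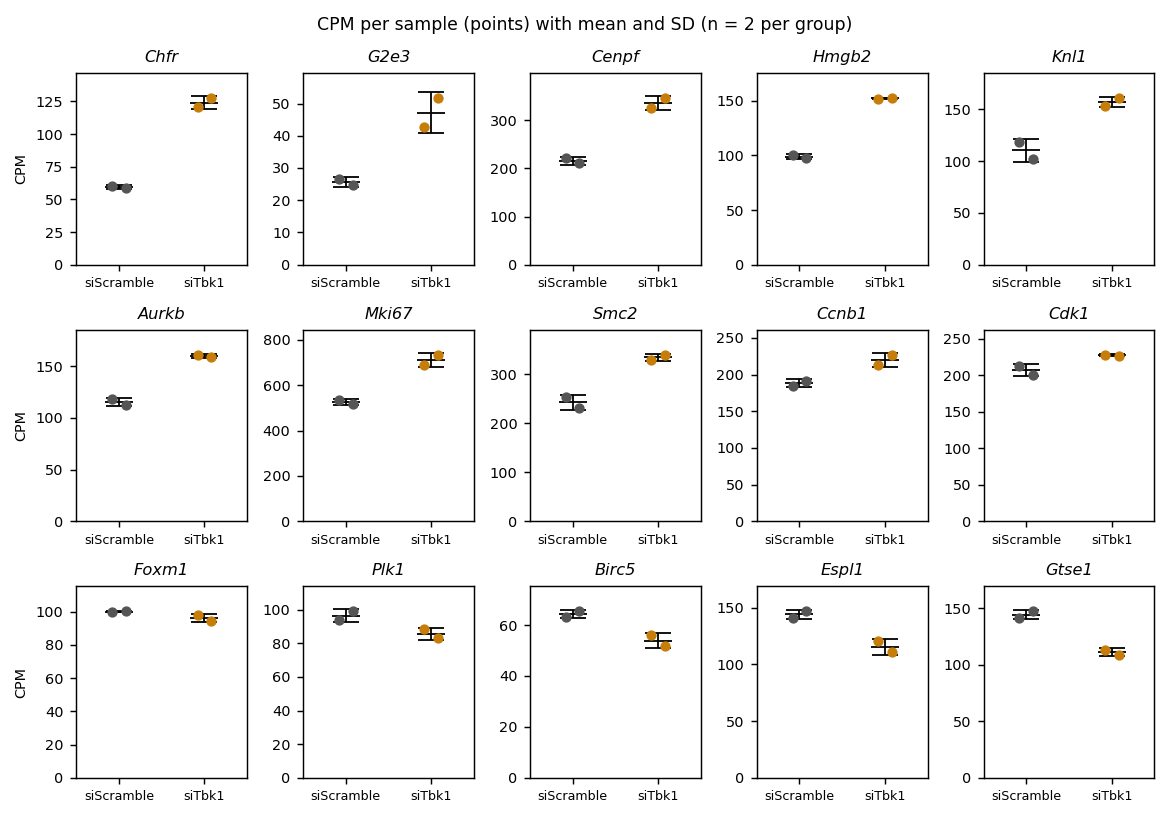
CPM (y axis, from 0) of 15 genes in each siScramble and siTbk1 sample (points), with the mean and SD of the 2 samples of a group. The siTbk1 points of Chfr (121 and 128) stand well above its controls (60.4 and 58.5), while the points of Foxm1 lie between 94.2 and 100.1 in both groups and those of Gtse1 are lower after siTbk1.

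The changes were also compared by replicate number. The log2 ratio of siTbk1 to siScramble was above 0 in both same-numbered comparisons for 37 genes (69.8%), below 0 in both for 11 (20.8%) and of opposite sign for 5. Over all genes tested, 42% were above 0 in both and 40.9% below 0 in both. The median over the 53 genes was 0.18 for replicate number 2 and 0.29 for number 3. All 32 genes that rose and all 4 that fell had the larger change at number 3, beside 81.5% of the 6864 genes past the test over the whole table. Ttk, for instance, had log2 ratios of 0.13 and 0.48, and Chfr had 1.00 and 1.12. The log2 ratio of Tbk1 itself was −2.18 at number 2 and −1.98 at number 3.

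**Figure D3:**
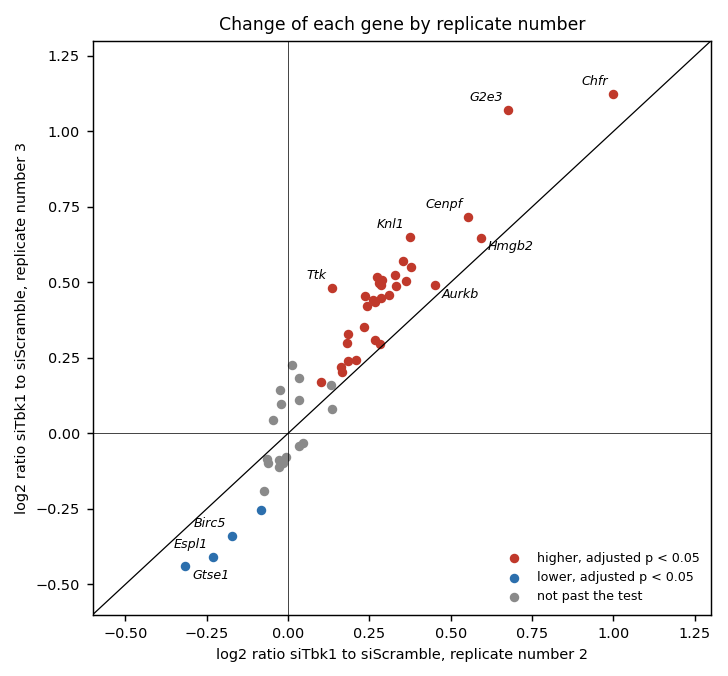
Log2 ratio of siTbk1 to siScramble for each of the 53 genes at replicate number 2 (x axis) and number 3 (y axis), with the line of equal change. Points of genes that rose lie above the line and those of genes that fell lie below it, from Gtse1 at −0.32 and −0.44 to Chfr at 1.00 and 1.12.

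**Figure D4:**
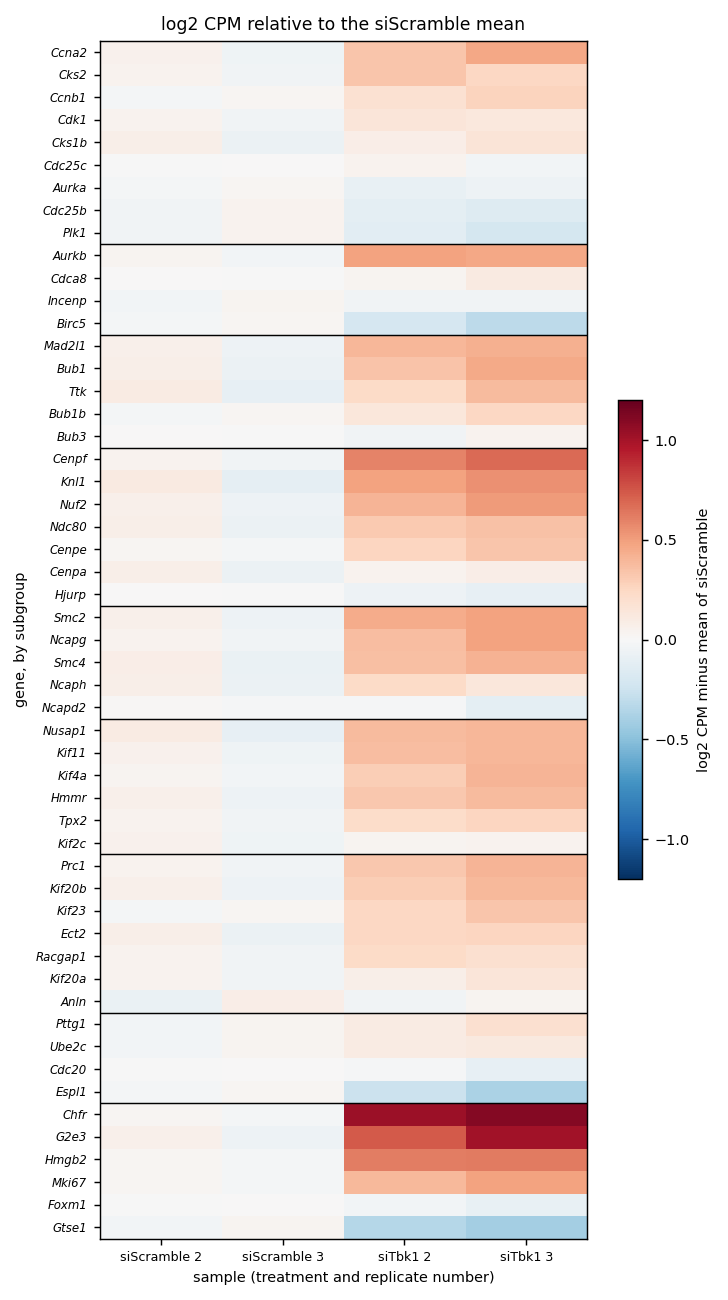
Log2 CPM of the 53 genes (rows, ordered by subgroup) in the 4 samples (columns), relative to the mean of the siScramble samples of each gene. The siScramble columns are pale, and the siTbk1 columns are red for most genes, darkest for Chfr and G2e3, and blue for Gtse1, Espl1, Birc5 and Plk1.

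The genes that rose covered longer stretches of the genome than the others. The genomic span from the listed start to the listed stop, introns included, had a median of 30.1 kb for the 32 genes that rose (range 2.58 to 99.5 kb), 13.3 kb for the 4 that fell and 12.9 kb for the 17 that did not pass the test, against 20.1 kb for all genes tested. Across the 53 genes, log2 fold change and log10 span correlated at 0.25 (Pearson) and 0.337 (Spearman), and across all 13953 genes at 0.177 and 0.214. These are descriptions across genes that share the same 4 libraries. With a correction for the span, 35 of the 53 genes rose and 3 fell, at a median log2 fold change of 0.23. After the correction Cenpf was at 0.56, under the limit of 1.5-fold, and Hmgb2, which spans only 2.58 kb, was at 0.73.

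Further genes of mitosis were looked at through a list of 112 names, of which 110 were tested. Of these, 56 rose (50.9%, beside 24.4% of all genes tested and 33.1% at the level of the 53) and 21 fell (19.1%, beside 24.8% and 29.2%), and the median log2 fold change was 0.18. With library size alone 48 rose and 24 fell, and with the span correction and a replicate block 43 rose and 19 fell. Without 1 sample the median lay between 0.14 and 0.214. By part, 9 of 13 cohesin genes rose and none fell, and 16 of 28 other kinetochore genes rose and 4 fell. Of 17 genes of the anaphase-promoting complex and its regulators, 5 rose and 5 fell (29.4% each), shares near those of all genes. Of 24 other spindle and cytokinesis genes 11 rose and 5 fell, the latter being the spindle pole gene Numa1 (−0.49), the kinesin genes Kifc1 (−0.49) and Kif18b (−0.29), the γ-tubulin gene Tubg1 (−0.38) and the augmin gene Haus5 (−0.36). The largest increases were those of Wee1, the kinase that inhibits Cdk1 (59.6 and 55.4 CPM against 102 and 109 CPM, log2 fold change 0.88), Rbl1, which encodes the pocket protein p107 (0.62), the kinetochore gene Cenph (0.61) and Haus1, a subunit of the augmin complex (0.58). The largest decreases were those of Fzr1, the activator of the anaphase-promoting complex in G1 (30.3 and 34.3 CPM against 22 and 20.1 CPM, log2 fold change −0.61), Mad2l1bp, which helps to silence the spindle checkpoint (−0.54), Anapc11 (−0.53) and Pkmyt1, the other kinase that inhibits Cdk1 (−0.52). Between the Cdk1 inhibitors, Wee1 was thus higher and Pkmyt1 lower, and both were separated between the groups. The separation of Pkmyt1 was less even, at 12.5 and 16.6 CPM in the siScramble samples and 11.1 and 8.98 CPM in the siTbk1 samples. Its log2 ratio was −0.17 at replicate number 2 and −0.88 at number 3, and its standard error was 0.136, against 0.0624 for Wee1.

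A list of 39 DNA replication genes, which act in S phase, had 12 that rose (30.8%) and 13 that fell (33.3%), shares near those of all genes, around a median of 0.0059 on the log2 scale. The count that rose was 7 without siScramble replicate 3, and the count that fell was 7 without siScramble replicate 3 and also 7 without siTbk1 replicate 3. CHR letters were present in 3 of 33 replication gene promoters (9.09%) and in 34 of 95 promoters of the wider mitosis list (35.8%). The difference between these lists was not tested.

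**Figure D5:**
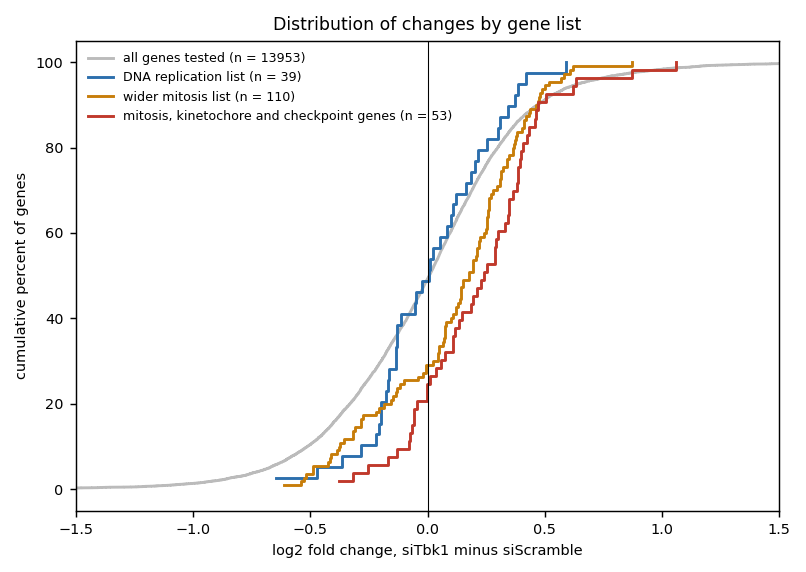
Cumulative percent of genes (y axis) by log2 fold change (x axis, siTbk1 minus siScramble) for the 53 mitotic genes, the wider mitosis list, the DNA replication list and all genes tested, with values beyond ±1.5 not drawn. The curve of the 53 genes lies to the right, with a median of 0.24, followed by the wider list at 0.18, and the replication list crosses 50% near 0, as all genes tested do.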

How the data were processed

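RNA from 2 siScramble-treated and 2 siTbk1-treated samples was measured by stranded sequencing of polyadenylated RNA. The authors deposited estimated counts per gene, not scaled between samples, of which between 21.1% and 22.3% per library lie more than 0.01 from a whole number, which is what "split reads" refers to. The submitters' processing notes name STAR 2.6.1d, Partek and the rn6 build, and no counting settings are given in the sources used here. Counts were rounded, filtered with filterByExpr of edgeR 4.0.16 (minimum count 10, 13953 genes kept) and scaled by TMM. The fit compared treatments with glmQLFit and glmQLFTest, with Benjamini-Hochberg adjustment over all genes. Standard errors were obtained by dividing the size of each log2 fold change by the square root of its F value. The study states the limits (adjusted p under 0.05, fold of 1.5) and no test. The groups share the replicate numbers 2 and 3, which with only 2 pairs were not taken as pairing the samples. The alternatives were a replicate block, DESeq2 1.42.0, limma-voom (limma 3.58.1), upper quartile scaling, library size alone, no filter, glmTreat, a loess correction (span 0.5) for genomic span with and without the block, and leaving out each sample. All of these except glmTreat make up the 12 other fits named in the report. R 4.3.3 and Python 3.11.15 were used, and the fits were tested on simulated data. Genes described in full are the 10 with the largest absolute change among those past the test, and Mki67, Chfr, Cdk1, Ccnb1, Foxm1 and Plk1. Of the wider list, up to 4 in each direction are named, and other genes given per sample or named from that list were chosen after their values were seen. The genes and lists were chosen with earlier results of these data known. Intervals are not given because there are 2 samples per group.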

Additional observations from a re-analysis of the deposited data

How the results depend on the processing

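The direction of all 36 genes that rose or fell was the same in 12 other fits, and 25 of the 32 that rose and 2 of the 4 that fell (Espl1 and Gtse1) were past the threshold in each of them. The number that rose lay between 29 and 35, and the median log2 fold change of the list between 0.191 (library size alone) and 0.267 (without siScramble replicate 2). With glmTreat against a fold of 1.5, 2 genes were called higher, Chfr and G2e3. Hmgb2 was at 0.572 with library size alone and Cenpf at 0.56 with the span correction, both under the fold limit. With library size alone 5 genes fell. Without 1 replicate, between 4 and 5 genes were called higher and between 2 and 4 fell, the lowest without siTbk1 replicate 3.

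With the replicate block, 30 of the 53 genes rose and 3 fell, 4 were called higher, the median was 0.239, and the replication list had 11 that rose and 7 that fell. The correlation of same-numbered deviations was −0.0813 across genes. Cdk1 (adjusted p = 0.136, edgeR), Ncaph (adjusted p = 0.0575, edgeR) and Plk1 (adjusted p = 0.08, edgeR) were not past the threshold with the block. With the span correction 8 replication genes fell, and 6 with correction and block. With correction and block 2 of the 53 fell, and Tpx2 (log2 fold change 0.173, adjusted p = 0.068, edgeR), Ect2 (0.158, adjusted p = 0.0992, edgeR) and Racgap1 (0.184, adjusted p = 0.0547, edgeR) were not past the threshold. Foxm1 changed sign under the correction with and without the block (0.0155 in each).

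The span correction, with and without the block, moved the medians to 0.188 in both for the entry genes, to 0.264 and 0.265 for spindle assembly, to 0.143 in both for the anaphase genes, to 0.578 in both for the checkpoint ligases and regulators, and to 0.0661 and 0.0664 for the replication list. Library size alone moved the medians to −0.033 (passenger complex), −0.0216 (anaphase genes), 0.48 (ligases and regulators), 0.13 (wider list) and −0.0411 (replication list), and that of all genes to −0.0403. Leaving out 1 replicate gave medians of 0.0471 to 0.178 (entry genes), −0.00377 to 0.0432 (anaphase genes) and 0.188 to 0.267 (cytokinesis), and 7 to 12 rising and 7 to 11 falling replication genes, with 7 rising and 7 falling without siScramble replicate 3 and 7 falling without siTbk1 replicate 3. The cause of these shifts was not tested. A sample left alone in its group is assumed to vary like the other group. The values of Cdk1, Plk1, Ncaph and Bub1b lie near the threshold.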

Other observations

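Genes that regulate the G2/M programme were looked at as part of the wider list. Of 10 such genes, 5 rose and 3 fell, with a median log2 fold change of 0.059. The 5 subunits of the MuvB complex differed in direction. Lin9 (8 and 7.9 CPM in the siScramble samples, 10.5 and 11.6 CPM in the siTbk1 samples, log2 fold change 0.47), Lin54 (0.34) and Rbbp4 (0.22) rose, Lin37 fell (12.5 and 14.1 CPM against 10.3 and 9.35 CPM, log2 fold change −0.43, adjusted p = 0.00377, edgeR), and Lin52, between 1.53 and 1.99 CPM, was at −0.32 without passing the test. Mybl2, which encodes the activator B-MYB, was at −0.10 with an adjusted p = 0.182 (edgeR). The counts of Lin9 and Rbbp4 include split reads. The mitotic kinase genes Mastl (log2 fold change 0.52) and Nek2 (0.26) rose as well, and the phosphatase gene Cdc25a was at −0.0072 with overlapping groups. All of these genes were picked for naming once their values were known.

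Some of the mitotic genes lie near each other in the listed positions. Chromosome 3 holds 9 of the 53, including Bub1b, Knl1 and Nusap1 with gaps of 435 and 512 kb between them (log2 fold changes 0.19, 0.51 and 0.39), and Ncaph and Bub1 with a gap of 762 kb (0.18 and 0.39). Kif20a and Cdc25c are 95.5 kb apart on chromosome 18, and neither passed the test (0.11 and 0.0083).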
